A study of Mus musculus with 4 samples.

Results

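Gene expression in sorted CD41low/CD9low hematopoietic stem cells (HSCs) was compared with that in HSCs, in Gfi1b WT and in Gfi1b KO mice. The study's results define HSCs either as CD41high/CD9high or as CD41low/CD9low, and call the HSCs sequenced beside the CD41low/CD9low ones CD41+/CD9+. The sort described in its methods and the labels give the HSC libraries no CD41 or CD9 gate. Whether the HSC libraries exclude CD41low cells is therefore not settled by these sources. All 37140 gene ids that were listed for all 4 libraries entered the comparison, of 42367 ids listed for any of them, and 14745 passed the filter on low counts and were tested. The HSC libraries came from Lin- cKit+ Sca1+ Cd48- CD150+ cells of the long bones of C57Bl6 mice, and the remaining libraries from HSCs gated as CD41low CD9low, with 1 WT and 1 KO library in each population. The sample descriptions give the genotype as Gfi1b WT or Gfi1b KO, while the sample titles write Gfi1. By the methods, the KO mice were Rosa-Cre Gfi1b fl/fl and the WT mice Rosa-Cre Gfi1b wt/fl, all had received tamoxifen, their age is not given in the sources used here, and bone marrow of the mice of a genotype was pooled before sorting. The deposited description instead separates floxed mice by the presence of ROSA-Cre, in which case the controls would carry no Cre. Rosa-Cre is expressed in most tissues, so the deletion was not restricted to HSCs. Whether both populations of a genotype came from the same mice is not given in the sources used here. Sort, mouse pool and population therefore cannot be told apart. With 1 library per genotype and population, the p-values set the difference common to the WT and the KO pair against a spread. That spread comes from how far the pairs depart from each other and from the trend over all genes, not from replicate mice.

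HSCs sit at the top of the blood cell hierarchy and are not uniform. CD41 is the integrin subunit alpha IIb, encoded by Itga2b, which with the beta 3 subunit forms the fibrinogen receptor of platelets. CD9 is a tetraspanin that is abundant on platelets and megakaryocytes, and HSCs that carry platelet lineage proteins are known to give rise preferentially to megakaryocytes. Gfi1b is a zinc finger repressor that recruits the histone demethylase LSD1 with CoREST and is needed for platelet and red cell formation.

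The libraries differed in ways that the genotype does not explain. The total count on the shared ids lay between 41610800 and 50670123 in HSC libraries and between 12547259 and 18913277 in the gated ones. Log2 ratios between the populations followed the GC content of the transcript, with a median over the 1467 genes lowest in GC of -0.53 in the WT pair and -0.61 in the KO pair, and over the 1460 genes highest in GC of 0.40 and 0.51. For that reason a second fit, with each library corrected for GC content, is given wherever it ended a call or moved a count by more than 1.5 times. The gene ids listed also differed between the populations, as they do between annotation releases, and 491 shared ids overlap an id that was listed for only 1 population. Genes of the sex chromosomes differed as well, while the methods describe the animals as matched in age and sex. The CPM (counts scaled to library size by TMM) of Xist, the RNA of the inactive X chromosome, were 1753 in WT HSCs and 1642 in KO HSCs, against 143 and 262 in their CD41low/CD9low counterparts, while the sum of the 4 Y-linked genes Ddx3y, Kdm5d, Eif2s3y and Uty was 78.5, 279.3, 295.2 and 277.2 CPM in the same order. The part of the sex of the mice in the other differences was not tested.

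**Figure D1:**
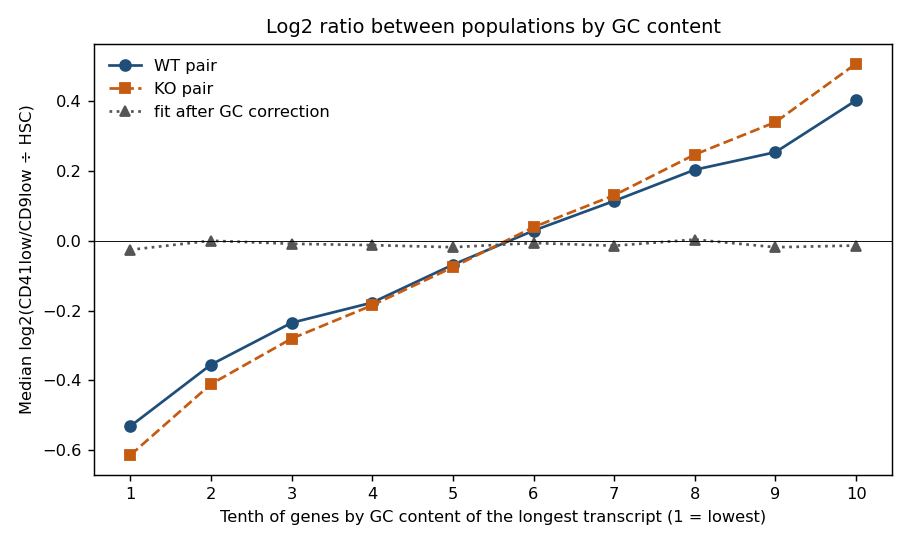
Median log2 ratio of CD41low/CD9low HSCs to HSCs (vertical axis) in 10 bins of genes ordered by the GC content of their longest transcript (horizontal axis). The medians went from -0.53 to 0.40 in the WT pair (circles) and from -0.61 to 0.51 in the KO pair (squares), and after the GC correction the medians of the fit over both pairs (triangles) lay between -0.03 and 0.00.

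The targeted gene was counted in every library. Gfi1b had 187 CPM in WT and 1236 CPM in KO HSCs, and 47.2 CPM in WT and 504.3 CPM in KO CD41low/CD9low HSCs, so that its count over the whole gene was higher in the KO library of each population. A count per gene does not separate the deleted exons from the others and does not check the deletion. Within each genotype the CD41low/CD9low library was the lower one, and in the fit over both pairs Gfi1b fell by 1.63 on the log2 scale (SE 0.17, adjusted p = 0.00015, edgeR's quasi-likelihood test). Its paralog Gfi1 had 11.5 and 108.8 CPM in WT and KO HSCs and 31.9 and 136.8 CPM in their CD41low/CD9low counterparts, and its log2 difference of 0.87 (SE 0.23, adjusted p = 0.023 in the same test) was not called after the GC correction (adjusted p = 0.080).

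In total, 1092 genes (7.41%) were called higher and 1705 (11.6%) lower in CD41low/CD9low HSCs at an adjusted p under 0.05 (edgeR's quasi-likelihood test with genotype as covariate). After the GC correction 899 (6.1%) were higher and 994 (6.74%) lower, of which 587 and 781 had also been called before it, and no gene called in both fits differed in direction. Scaled to the total count in place of TMM, 1601 genes were higher and 1527 lower. Without any test, 672 genes (4.56%) were at least 2-fold higher and 870 (5.9%) at least 2-fold lower in the WT pair and in the KO pair alike. Of the 2797 called genes, 2796 had the same sign in both pairs, which the fit favours by its construction. These numbers rest on all 4 libraries. With 1 library left out the fit has no genotype term, so that differences between WT and KO enter it, and with all 4 libraries and no genotype term 356 genes were higher and 734 lower. Fits without the KO HSC library called 482 genes higher and 909 lower, those without the WT CD41low/CD9low library 33 and 90, and those without the KO CD41low/CD9low library 50 and 71. With the biological coefficient of variation set to 0.4 in place of the estimate of 0.251, which rests on 1 residual degree of freedom and the trend over all genes, 329 were higher and 544 lower. Of the 140 called genes that were followed in each of these fits, 122 were still called without the WT HSC library, 113 without the KO HSC library, 30 without the WT and 35 without the KO CD41low/CD9low library.

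The genes of the sort were compared first, and they are a check of the gate rather than a finding. Itga2b, the gene of CD41, had 562 CPM in WT and 713 CPM in KO HSCs, against 134 and 203 CPM in their CD41low/CD9low counterparts. Both gated libraries thus lay below both HSC libraries, by 4.19-fold in the WT pair and 3.52-fold in the KO pair, and the gene fell by 1.94 on the log2 scale (SE 0.14, adjusted p = 9.4e-06). Cd9 had 191 CPM in both HSC libraries and 107 and 132 CPM in the gated ones. Its difference of -0.68 (SE 0.15, adjusted p = 0.0084) was smaller, was not called after the GC correction (adjusted p = 0.056), and Cd9 overlaps an id that was listed for 1 population. Kit, the receptor of stem cell factor, had 1017 and 1064 CPM in HSCs and 1013 and 1250 CPM in CD41low/CD9low HSCs and was not called (log2 0.11, SE 0.13). Ly6a, which encodes Sca1, was higher in both gated libraries, with 48.1 and 50.5 CPM against 24.2 and 17.1 CPM (log2 1.28, SE 0.21, adjusted p = 0.0020). Slamf1, which encodes CD150, had 85 and 109.7 CPM in HSCs and 30.4 and 60.5 CPM in CD41low/CD9low HSCs and fell by 1.16 (SE 0.18, adjusted p = 0.0015). Cd48, a negative marker of the HSC gate, was low in all libraries, at 6.17 and 8.0 CPM in HSCs and 1.24 and 2.17 CPM in CD41low/CD9low HSCs, and its difference (log2 -2.09, SE 0.55, adjusted p = 0.022) was not called after the GC correction (adjusted p = 0.052). Itga2b kept its call without the KO CD41low/CD9low library, and no other gene of the sort was called without one of the gated libraries.

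Most of the megakaryocyte and platelet genes were lower in CD41low/CD9low HSCs. Of 36 tested genes of this list 23 (63.9%) were called lower, against 11.6% of all genes, and 22 after the GC correction. Itga2b and Cd9, the genes of the gate, were 2 of them, and without both 21 of 34 (61.8%) were called lower, and 21 after the GC correction. In all 23, both CD41low/CD9low libraries lay below both HSC libraries, and the median log2 ratio of the list was -1.62 in the WT pair and -1.69 in the KO pair, against -0.03 in each pair over all genes. None was called higher by edgeR (1 at an unadjusted p under 0.05) or by DESeq2. Without the KO HSC library 15 were called lower, without the WT CD41low/CD9low library 3 (Pf4, Vwf and Rab27b), and without the KO CD41low/CD9low library 6, Itga2b among them. Since these are bulk samples, fewer cells with platelet lineage RNA and less of it per cell cannot be told apart.

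Among the receptors and adhesion genes of this list, Itgb3, the beta subunit that pairs with CD41, had 208 and 685 CPM in WT and KO HSCs and 50.5 and 139 CPM in their CD41low/CD9low counterparts (log2 -2.17, SE 0.15, adjusted p = 5.3e-06). Vwf, the von Willebrand factor that tethers platelets to the vessel wall, had 575 and 699.9 CPM in HSCs and 203 and 124 CPM in CD41low/CD9low HSCs (log2 -2.0, SE 0.21). Its receptor is made of the Gp1ba, Gp1bb, Gp5 and Gp9 products, and all 4 genes were called lower. Gp5 had 55.8 and 33.5 CPM in HSCs and 11.6 and 18.2 CPM in CD41low/CD9low HSCs. Gp1bb had 12.1 and 20.8 CPM in HSCs, 0 counts in the WT and 3.16 CPM in the KO CD41low/CD9low library, and it overlaps another gene on its strand. Gp9 differed least of these, with 24.3 and 21.7 CPM in HSCs and 12.3 and 13.1 CPM in CD41low/CD9low HSCs (log2 -0.86, SE 0.25, adjusted p = 0.035). Selp, the platelet and endothelial selectin, had 65.6 and 24.6 CPM in HSCs and 22.9 and 9.42 CPM in CD41low/CD9low HSCs, so that the KO HSC and the WT gated library lay close together.

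Granule and signalling genes followed the same order. Pf4, the chemokine of platelet alpha granules, had 148 and 130 CPM in HSCs and 14.1 and 13.1 CPM in CD41low/CD9low HSCs, a fold of 10.5 in the WT pair and 9.95 in the KO pair (log2 -3.35, SE 0.17, adjusted p = 5.4e-07), and it stayed called without any 1 of the 4 libraries. Plek, which encodes pleckstrin, the main protein kinase C substrate of platelets, had 500.3 and 1521 CPM in HSCs against 109 and 194 CPM (log2 -2.59, SE 0.19). Rab27b, a small GTPase of platelet granule release, had 125 and 193 CPM against 32.1 and 36.4 CPM and also stayed called without any 1 library. Serpine2, an inhibitor of thrombin, had 18.4 and 61.5 CPM against 2.62 and 4.87 CPM (log2 -3.28, SE 0.29). Alox12, the platelet lipoxygenase, had 6.13 and 22.4 CPM against 0.309 and 0.569 CPM (log2 -4.92, SE 0.52). Mmrn1, which encodes multimerin, was called lower (log2 -0.68, SE 0.14) but not after the GC correction (adjusted p = 0.26).

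The transcription factors of the lineage did not all move. Gata1, which activates megakaryocyte and erythroid genes, had 64.7 and 50.2 CPM in HSCs and 7.72 and 21.1 CPM in CD41low/CD9low HSCs (log2 -2.10, SE 0.35, adjusted p = 0.0020). Nfe2, which drives platelet release, had 335 and 289 CPM in HSCs and 341 and 385 CPM in CD41low/CD9low HSCs, a log2 difference of 0.22 (SE 0.15, adjusted p = 0.33). Of the erythroid genes, which share Gata1 with this list, 6 of 30 (20%) were called lower, against 11.6% of all genes, and 8 after the GC correction, against 6.74%. In both pairs alike 14 of the 30 were lower and 3 higher, with a median of -0.17 in the WT and -0.54 in the KO pair. The summed erythroid markers moved in opposite directions, from 43.8 to 147 CPM in the WT pair and from 43.2 to 8.02 CPM in the KO pair. Among the 22 tested integrin subunit genes 8 were called lower and 2 higher. Without Itga2b, the gene of the gate, 7 of 21 (33.3%) were lower and 2 (9.5%) higher, against 11.6% and 7.41% of all genes, and 6 and 1 after the GC correction. Besides Itga2b and Itgb3 these included Itga6, the laminin receptor subunit, at 489.7 and 497 CPM in HSCs and 298 and 316 CPM in CD41low/CD9low HSCs (log2 -0.68, SE 0.13, adjusted p = 0.0052). Itga4 and Itgb1, which form the receptor for Vcam1, were called lower (log2 -0.58 and -0.64) but not after the GC correction (adjusted p = 0.75 and 0.090). Itgam was higher, at 33.3 and 20 CPM against 15.8 and 9.39 CPM.

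**Figure D2:**
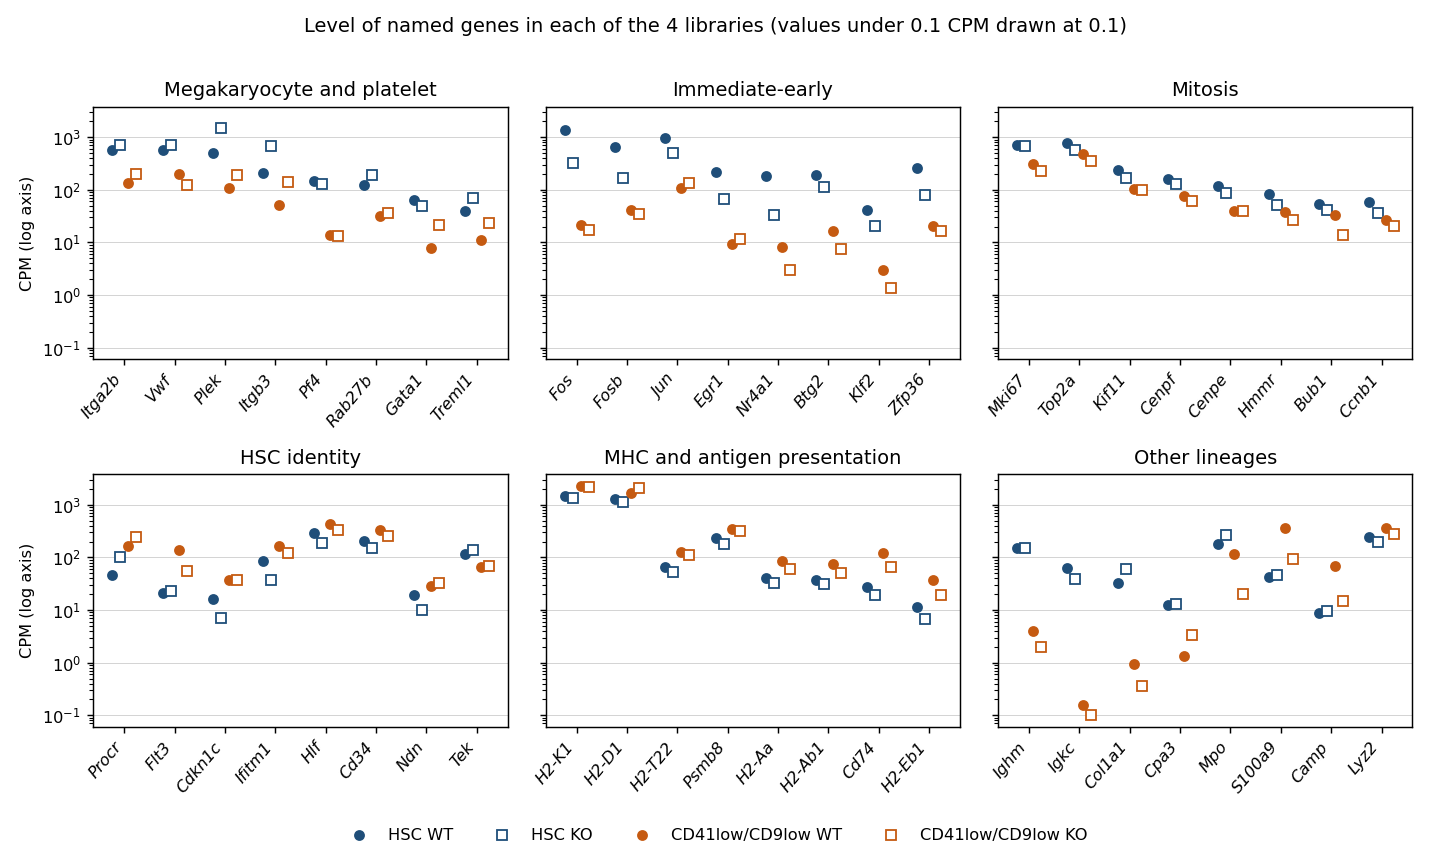
CPM on a log axis (vertical) of named genes (horizontal) in the 4 libraries, each point 1 library without an error bar, with blue for HSCs, orange for CD41low/CD9low HSCs, filled circles for WT, open squares for KO, and values under 0.1 CPM drawn at 0.1. For every gene drawn under megakaryocyte and platelet, immediate-early or mitosis both orange points lie below both blue ones, as for Pf4 with 14.1 and 13.1 against 148 and 130 CPM, while in the antigen presentation panel they lie above.

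Immediate-early genes are transcribed within minutes of a stimulus without new protein synthesis. Many of them were lower in CD41low/CD9low HSCs. Of 51 tested genes 26 (51.0%) were called lower, against 11.6% of all genes, and 29 after the GC correction. None was called higher by edgeR (3 at an unadjusted p under 0.05), 1 by DESeq2 and 1 after the GC correction (Klf10, chosen after its value was seen). The list median was -1.29 in the WT pair and -0.60 in the KO pair. Of the 26 called genes, 25 were lower in both CD41low/CD9low libraries than in both HSC libraries, and 22 were higher in the WT than in the KO HSC library, with a median ratio of 2.09, while 22 had the larger fold in the WT pair. Without the WT CD41low/CD9low library 2 genes of the list were called lower (Btg2 and Klf2), without the KO CD41low/CD9low library 1 (Btg2), and without the WT HSC library 19.

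Fos and Jun products pair to form the AP-1 transcription factor. Fos had 1360.0 CPM in WT and 323 CPM in KO HSCs, and 21 and 17.0 CPM in their CD41low/CD9low counterparts. That is a fold of 64.7 in the WT pair and 19 in the KO pair, and the gene fell by 5.13 on the log2 scale (SE 0.35, adjusted p = 5.2e-06). Its relative Fosb had 639.8 and 170 CPM in HSCs and 41.4 and 34.4 CPM in CD41low/CD9low HSCs. Jun had 965 and 494 CPM in HSCs against 109 and 136 CPM (log2 -2.50, SE 0.25), and Junb 304 and 79.7 CPM against 71.8 and 54.5 CPM (log2 -1.32, SE 0.28, adjusted p = 0.0080). Egr1, a zinc finger factor that holds HSCs in quiescence and in the niche, had 214 and 67.2 CPM in HSCs and 9.18 and 11.4 CPM in CD41low/CD9low HSCs (log2 -3.51, SE 0.36, adjusted p = 0.00012). Nr4a1, an orphan nuclear receptor, had 182 and 33.1 CPM in HSCs and 8.26 and 2.95 CPM in CD41low/CD9low HSCs, and Nr4a2 had 82.6 and 19 CPM against 1.24 and 3.68 CPM. The Krüppel-like factors Klf2, Klf4 and Klf6 were called lower as well. Klf2 had 40.7 and 20.4 CPM against 3.01 and 1.35 CPM (log2 -3.83, SE 0.30). In each of these genes both CD41low/CD9low libraries lay below both HSC libraries.

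Other members of the list were called lower as well. Btg2, an antiproliferative cofactor of mRNA deadenylation, had 192 and 112 CPM in HSCs and 16.1 and 7.56 CPM in CD41low/CD9low HSCs (log2 -3.72, SE 0.18, adjusted p = 4.6e-07), and it stayed called without any 1 library. Dusp1, the phosphatase that inactivates MAP kinases, had 533 and 254 CPM in HSCs and 95.4 and 74.0 CPM in CD41low/CD9low HSCs (log2 -2.13, SE 0.18). Zfp36, which destabilises AU-rich mRNAs, had 263 and 78.7 CPM against 20.7 and 16.4 CPM (log2 -2.97, SE 0.28). Atf3 had 18.8 and 2.11 CPM in HSCs, 0 counts in the WT CD41low/CD9low library, which puts it at least 81.3-fold lower in the WT pair, and 0.05 CPM in the KO one. Ptgs2, which encodes an inducible cyclooxygenase, was counted in neither CD41low/CD9low library and was at least 41.3-fold lower in the WT pair and at least 6.38-fold lower in the KO pair, taking 3 counts per library as the detection limit. Rgs1 and Btg1 were called lower, but not after the GC correction (adjusted p = 0.20 and 0.28).

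Promoter letters were read for these genes because response genes of this kind share known elements. The list had RefSeq promoter windows (GRCm38.p6, 250 bases before to 50 after the start) for 40 of its 53 genes, of which 39 were tested. Egr1 had no window, and letters outside the windows were not read for any gene. The cAMP response element TGACGTCA, on either strand, stood in 2 of the 22 genes called lower that had a window (9.09%), Btg2 and Dusp1, against 2.03% of all 27025 genes with a window and 3.44% of those tested. The CArG box of serum response factor stood in 1 of the 22 (4.55%), Zfp36, against 1.81% of all genes, and in 3 of the 17 other tested genes of the list (17.65%). The AP-1 letters TGACTCA, which neither hold nor lie within the other motifs, stood in none of the 22, against 5.95% of all genes. The 250 bases before the start of the 3 lower genes with a match and of Fos, which had the highest CPM of the list in WT HSCs, are printed 5′ to 3′ on the strand of the gene, with the matching letters in capitals. Btg2 lies at chr1:134079156-134079405 (reverse strand), Dusp1 at chr17:26508473-26508722 (reverse strand), Zfp36 at chr7:28379229-28379478 (reverse strand) and Fos at chr12:85473640-85473889 (forward strand).
Btg2: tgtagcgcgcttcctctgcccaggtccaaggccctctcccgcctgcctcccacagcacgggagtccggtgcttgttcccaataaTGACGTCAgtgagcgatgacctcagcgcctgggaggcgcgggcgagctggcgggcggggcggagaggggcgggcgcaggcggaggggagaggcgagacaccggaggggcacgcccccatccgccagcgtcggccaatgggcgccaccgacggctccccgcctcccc
Dusp1: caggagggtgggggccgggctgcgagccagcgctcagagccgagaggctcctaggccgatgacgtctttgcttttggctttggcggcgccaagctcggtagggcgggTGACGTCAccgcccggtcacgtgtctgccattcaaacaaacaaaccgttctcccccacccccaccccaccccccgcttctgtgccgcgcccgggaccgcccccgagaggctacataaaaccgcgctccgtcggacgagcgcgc
Zfp36: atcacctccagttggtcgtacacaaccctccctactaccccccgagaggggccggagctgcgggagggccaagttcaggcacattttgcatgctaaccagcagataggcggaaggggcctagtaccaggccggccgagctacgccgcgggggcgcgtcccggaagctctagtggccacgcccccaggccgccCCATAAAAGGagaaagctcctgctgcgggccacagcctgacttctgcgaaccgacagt
Fos: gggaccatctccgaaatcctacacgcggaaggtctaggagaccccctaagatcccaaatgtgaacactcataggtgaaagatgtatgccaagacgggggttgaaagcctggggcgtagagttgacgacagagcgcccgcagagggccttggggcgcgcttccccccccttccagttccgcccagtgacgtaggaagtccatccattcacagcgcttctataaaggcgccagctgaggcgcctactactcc
The window of Fos held none of the 3 motifs as spelled here. A match is a run of letters and not a measured site.

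Genes of mitosis were lower in both pairs. All 32 tested genes of this list had a negative log2 difference, from -1.38 to -0.14, and 21 (65.6%) were called lower, against 11.6% of all genes, and 18 after the GC correction. None was called higher by edgeR (0 at an unadjusted p under 0.05) or by DESeq2. The list median was -0.72 in the WT pair and -0.60 in the KO pair. Without the WT HSC library 5 were called, and 0 without either of the CD41low/CD9low libraries. Mki67, the gene of the proliferation antigen Ki-67, had 706 and 671 CPM in HSCs and 309 and 226 CPM in CD41low/CD9low HSCs (log2 -1.38, SE 0.15, adjusted p = 0.00014). The kinetochore gene Cenpe had 119.8 and 88.2 CPM against 39.0 and 40.4 CPM (log2 -1.37, SE 0.17), and Cenpf 163 and 127.5 CPM against 75.8 and 60.9 CPM (log2 -1.09, SE 0.15). Kif11, the spindle motor, had 242 and 169.6 CPM in HSCs against 102 and 97.6 CPM. Top2a, the topoisomerase that separates sister chromatids, was called lower (log2 -0.68, SE 0.13), but not after the GC correction (adjusted p = 0.18).

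Few genes of DNA replication were called. Of 35 tested genes 3 (8.57%) were called lower and 1 higher, near the shares of all genes, and after the GC correction 2 and 0. The helicase subunits Mcm4 and Mcm7 stood on opposite sides, at log2 -0.81 (SE 0.14) and 0.46 (SE 0.14), and Mcm7 was not called after the correction (adjusted p = 0.16). Among the G1 cyclins and their inhibitors, Cdkn1c, which encodes the cell cycle inhibitor p57 of quiescent HSCs, was higher, with 16.5 and 7.03 CPM in HSCs and 38.0 and 37.0 CPM in CD41low/CD9low HSCs (log2 1.79, SE 0.29, adjusted p = 0.0020). Cdk6, the kinase that speeds exit from quiescence, was lower, with 371 and 683 CPM in HSCs and 159 and 229 CPM in CD41low/CD9low HSCs (log2 -1.40, SE 0.15). Rb1, the retinoblastoma protein gene, was lower as well, with 44.9 and 67.2 CPM against 16.8 and 14.3 CPM (log2 -1.83, SE 0.23). Without either of the gated libraries none of these 3 genes was called.

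Genes of HSC identity moved in both directions. Of 40 tested genes 16 (40%) were called higher and 10 (25%) lower, against 7.41% and 11.6% of all genes, and 14 and 8 after the GC correction. Without the KO HSC library 8 were called higher, without the WT CD41low/CD9low library 0, and without the KO CD41low/CD9low library 1 (Flt3). The summed CPM of 10 HSC markers, all of them detected in every library, was 2021 and 2043 in HSCs and 2200.0 and 2432 in CD41low/CD9low HSCs. Kit, a gene of the sort, held 1017 and 1064 CPM of the sums in HSCs and 1013 and 1250 CPM in CD41low/CD9low HSCs. Of the 10 markers 3 were called higher and 3 lower. Procr, the protein C receptor that marks long-term HSCs, had 46.9 and 102 CPM in HSCs and 162 and 248 CPM in CD41low/CD9low HSCs (log2 1.53, SE 0.16, adjusted p = 0.00015). Hlf, a transcription factor of HSC maintenance, had 288 and 191 CPM in HSCs and 432 and 326 CPM in CD41low/CD9low HSCs (log2 0.68, SE 0.14, adjusted p = 0.0065). Ifitm1 (log2 1.34, SE 0.19), Sult1a1 (log2 1.24, SE 0.23) and Ndn (log2 1.11, SE 0.29) were higher by about the same size.

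A pair of genes known from progenitors were among the higher ones. Flt3, the receptor that multipotent and lymphoid-primed progenitors gain, had 21.4 and 23.3 CPM in HSCs and 139 and 55.5 CPM in CD41low/CD9low HSCs (log2 1.98, SE 0.28, adjusted p = 0.00092). Cd34 had 205 and 149.8 CPM in HSCs and 327 and 253 CPM in CD41low/CD9low HSCs (log2 0.72, SE 0.14, adjusted p = 0.0047). The 6 markers of multipotent and lymphoid-primed progenitors, which include both, summed to 291 and 202 CPM in HSCs and 506 and 323 CPM in CD41low/CD9low HSCs. The lower group included Egr1, Vwf and Slamf1. Of its other members, Tek, the angiopoietin receptor, had 116 and 136 CPM in HSCs against 64.7 and 69.7 CPM (log2 -0.90, SE 0.15), and the transcription factor genes Fli1 (log2 -0.85, SE 0.14) and Gata2 (log2 -0.59, SE 0.13) were called lower, both of which also act in megakaryocytes. Mecom had 274.5 and 208 CPM in HSCs and 288 and 258 CPM in CD41low/CD9low HSCs and was not called (log2 0.19, SE 0.14, adjusted p = 0.38). Outside this list, Cxcr4, the receptor that retains HSCs in the marrow, was higher, with 82.0 and 57.4 CPM in HSCs and 194.5 and 138 CPM in CD41low/CD9low HSCs (log2 1.26, SE 0.14). Notch1 was higher as well, with 52.1 and 55 CPM against 125 and 106 CPM (log2 1.11, SE 0.16).

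Genes of antigen presentation were higher in CD41low/CD9low HSCs. Of 21 tested genes 14 (66.7%) were called higher, against 7.41% of all genes, and 10 after the GC correction. None was called lower by edgeR (1 at an unadjusted p under 0.05) and 1 by DESeq2. The list median was 0.59 in the WT pair and 0.77 in the KO pair. Without the WT CD41low/CD9low library 0 were called higher and without the KO one 1 (Cd74). The largest 2 differences were in genes of class II. Cd74, the invariant chain that chaperones class II molecules, had 27.2 and 19.1 CPM in HSCs and 119.9 and 66.6 CPM in CD41low/CD9low HSCs (log2 1.97, SE 0.17, adjusted p = 3.0e-05). The class II chains H2-Eb1, at 11.4 and 6.81 CPM against 37.3 and 19.2 CPM, and H2-Aa, at 39.8 and 33.2 CPM against 84.7 and 60.3 CPM, were higher in both pairs. Their transactivator Ciita had 9.13 and 6.76 CPM in HSCs and 15.1 and 12.6 CPM in CD41low/CD9low HSCs and was not called (log2 0.81, SE 0.31, adjusted p = 0.094). Of the class I genes, H2-K1 had 1487 and 1330.0 CPM in HSCs and 2292 and 2168 CPM in CD41low/CD9low HSCs (log2 0.66, SE 0.13, adjusted p = 0.0045). H2-D1 was called higher (log2 0.65, SE 0.14), but not after the GC correction (adjusted p = 0.088). B2m, which encodes the light chain of class I, was not called, and its sign changed with the GC correction from -0.38 (SE 0.13) to 0.12.

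Many genes of ribosomal proteins were higher by less than 2-fold. Of 79 tested genes 37 (46.8%) were called higher, against 7.41% of all genes, and 1 lower (Rpl39), and 31 and 1 after the GC correction, with a list median of 0.30 in the WT pair and 0.55 in the KO pair. Scaled to the total count, 50 were higher and 1 lower. Without either of the CD41low/CD9low libraries 0 were called. Rplp1, an acidic protein of the ribosomal stalk, had 915 and 727 CPM in HSCs and 1729 and 1483 CPM in CD41low/CD9low HSCs (log2 0.97, SE 0.13, adjusted p = 0.00068). Its neighbour in the stalk Rplp0 had 1653 and 1304 CPM against 2064 and 2008 CPM (log2 0.47, SE 0.13, adjusted p = 0.030), and was not called after the correction.

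RNA without a poly(A) tail also differed, in libraries that were prepared with an mRNA kit. Of 107 tested small RNA genes 23 (21.5%) were called higher and 4 (3.74%) lower, against 7.41% and 11.6% of all genes, and 21 and 4 after the GC correction. Without either of the CD41low/CD9low libraries 5 were called higher. Rpph1, the RNA of ribonuclease P, had 3780.0 and 4224 CPM in HSCs and 17350 and 16510 CPM in CD41low/CD9low HSCs (log2 2.08, SE 0.12), and it overlaps Ccnb1ip1 on its strand. Scarna2, which guides the modification of spliceosomal RNA, had 426 and 620 CPM in HSCs and 2524 and 2652 CPM in CD41low/CD9low HSCs (log2 2.33, SE 0.15, adjusted p = 4.4e-06) and stayed called without any 1 library. Rn7sk, the RNA that holds the elongation factor P-TEFb inactive, was called higher (log2 0.63, SE 0.14), but not after the GC correction (adjusted p = 0.26).
Replication-dependent histone mRNAs end in a stem loop in place of a poly(A) tail. Of 50 tested genes 12 (24%) were called higher and 6 (12%) lower, against 7.41% and 11.6% of all genes. After the GC correction 10 were higher and 14 lower, against 6.1% and 6.74% of all genes. Of 13 tested H4 genes 11 were called higher and 0 lower, and 9 and 0 after the GC correction. Of 13 tested H2a genes 5 were called lower and 0 higher, and 7 and 0 after it. Few of the 6 H1, 12 H2b and 6 H3 genes were called before it (0, 0 and 1 higher, and 0, 1 and 0 lower). After it 0, 1 and 0 were higher, and 3, 3 and 1 lower. Hist1h4j had 36.6 and 31.2 CPM in HSCs and 123.5 and 106 CPM in CD41low/CD9low HSCs (log2 1.76, SE 0.15), and Hist1h4k 33.0 and 27.0 CPM against 106 and 89.7 CPM. Hist1h2ai had 44.5 and 38.2 CPM in HSCs against 14.9 and 14.8 CPM (log2 -1.47, SE 0.22). Core histone genes of a class encode nearly identical proteins, and how reads shared between such genes were counted is uncertain. Without the WT CD41low/CD9low library 2 histone genes were called higher (Hist1h4j and Hist1h4k), as without the KO one.

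Genes of the integrated stress response were called in both directions. Of 26 tested genes of this list 5 (19.2%) were higher and 4 (15.4%) lower, against 7.41% and 11.6% of all genes. Trib3, a pseudokinase induced by amino acid shortage, had 9.33 and 2.58 CPM in HSCs and 34.0 and 17.4 CPM in CD41low/CD9low HSCs (log2 2.29, SE 0.31, adjusted p = 0.00070). Atf5 (log2 1.65, SE 0.34) and Ddit3 (log2 1.0, SE 0.22), both transcription factors of this response, were higher. Ppp1r15a, the phosphatase subunit that ends it, had 378 and 188 CPM in HSCs and 71.7 and 64.7 CPM in CD41low/CD9low HSCs (log2 -1.97, SE 0.20, adjusted p = 9.7e-05), and Atf4 (log2 -0.71, SE 0.19) and the chaperone gene Hspa5 (log2 -0.73, SE 0.13) were lower. Of the splicing and RNA-processing genes 12 of 29 (41.4%) were called lower, against 11.6% of all genes, and 0 higher (edgeR, with 0 at an unadjusted p under 0.05 and 0 by DESeq2). After the GC correction 4 were lower and 3 higher, where 6.74% and 6.1% of all genes were. Hnrnpu, a nuclear RNA-binding protein gene that overlaps Cox20 on the other strand, had 1297 and 1093 CPM in HSCs and 159 and 167 CPM in CD41low/CD9low HSCs (log2 -2.87, SE 0.15, adjusted p = 6.5e-07) and stayed called in both fits and without any 1 library. For canonical Wnt pathway genes 4 of 40 (10%) were called in each direction, near the shares of all genes, and after the GC correction 1 was higher and 3 lower. Of 28 non-canonical Wnt and polarity genes 7 (25%) were lower and 1 higher, and after the GC correction 3 and 1.

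**Figure D3:**
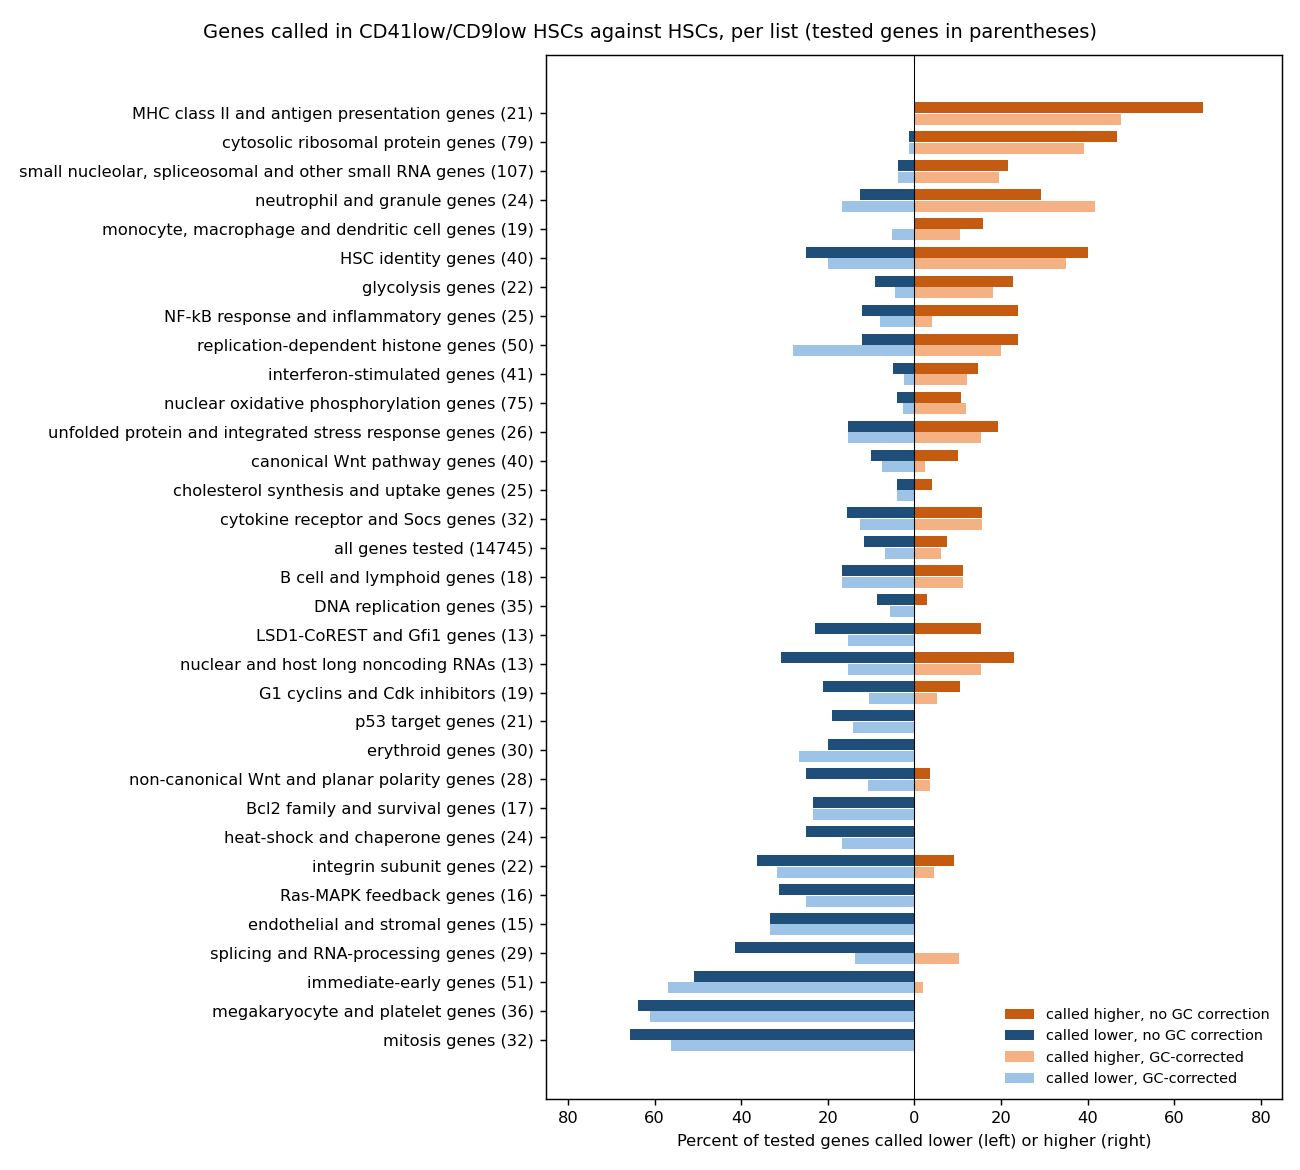
Percent of the tested genes of each list drawn (number in parentheses) called lower, to the left, or higher, to the right, in CD41low/CD9low HSCs. Dark bars are before and light bars after the GC correction. Lists with few tested genes, the genes of the sort and the mitochondrially encoded protein genes among them, were not drawn. Mitosis, megakaryocyte and platelet, and immediate-early genes stand at the bottom with 65.6%, 63.9% and 51.0% called lower, antigen presentation genes at the top with 66.7% called higher, and all tested genes in the middle with 11.6% lower and 7.41% higher.

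RNA known from other lineages was present in all libraries, and some of it differed between the populations. The 7 B cell markers summed to 238 and 211 CPM in HSCs and 34.4 and 29.9 CPM in CD41low/CD9low HSCs. Most of the sum in HSCs was Ighm and Igkc, and most of it in CD41low/CD9low HSCs was Cd79b, which had 21.3 and 17.8 CPM against 30.2 and 27.8 CPM. Cd79a, Ms4a1 and Pax5 had no counts in the gated libraries and at most 34 in an HSC library, and of the whole B cell and lymphoid list 2 of 18 genes (11.1%) were called higher and 3 (16.7%) lower, near the 7.41% and 11.6% of all genes. Ighm, the immunoglobulin mu chain, had 153 and 153 CPM in HSCs and 4.01 and 1.97 CPM in CD41low/CD9low HSCs (log2 -5.75, SE 0.25). Igkc had 62.1 and 39.5 CPM in HSCs, 0.15 CPM in the WT and 0 counts in the KO CD41low/CD9low library. Jchain, the joining chain of secreted antibodies, had 67.7 and 27.6 CPM in HSCs, 0 counts in the WT and 0.52 CPM in the KO CD41low/CD9low library. Col1a1, the main collagen of bone, had 32.8 and 61.6 CPM in HSCs and 0.93 and 0.36 CPM in CD41low/CD9low HSCs (log2 -6.25, SE 0.45). Kdr, an endothelial receptor, had 17.1 and 27.2 CPM against 4.63 and 6.42 CPM, and the 6 endothelial markers summed to 127 and 172 CPM in HSCs and 107 and 106.5 CPM in CD41low/CD9low HSCs, where Cdh5 and Plvap had no counts. Fcer1a, the IgE receptor chain of mast cells and basophils, had 8.91 and 5.10 CPM in HSCs and no counts in either gated library, at least 38.5-fold and 32.9-fold lower, and Cpa3 was lower with it (log2 -2.54, SE 0.45). The part of such RNA in the other differences was not tested. The 9 macrophage markers, most of whose sum was Lyz2, summed to 267 and 218 CPM in HSCs and 405 and 294 CPM in CD41low/CD9low HSCs, and of the monocyte, macrophage and dendritic cell genes 3 of 19 (15.8%) were called higher and 0 lower (edgeR, 2 at an unadjusted p under 0.05, and 0 by DESeq2). With 1 library left out 0 of them were called higher, except 2 without the WT HSC library. The 9 megakaryocyte markers other than the gate gene Itga2b summed to 303.2 and 297.3 CPM in HSCs and to 55.8 and 75.0 CPM in the gated libraries, and only Gp6 of them had no counts in both gated libraries.

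Neutrophil genes had unlike ratios in the WT and the KO pair, a difference that was not tested. Of 24 tested genes 7 (29.2%) were called higher and 3 (12.5%) lower, against 7.41% and 11.6% of all genes, but the list median was 1.93 in the WT pair and -0.03 in the KO pair. In 23 of the 24 genes the WT CD41low/CD9low library lay above the KO one. S100a9, a calcium-binding protein of neutrophil cytosol, had 41.8 and 45.9 CPM in HSCs, 357 CPM in the WT and 93.7 CPM in the KO CD41low/CD9low library (log2 2.07, SE 0.36, adjusted p = 0.0030), and S100a8 had 31.0 and 38.5 CPM in HSCs, 173 CPM and 38.6 CPM in the gated libraries and was not called (adjusted p = 0.064). Mpo, the myeloperoxidase of primary granules, had 179 and 267 CPM in HSCs, 119 CPM in the WT and 20.3 CPM in the KO CD41low/CD9low library (log2 -2.11, SE 0.54, adjusted p = 0.020). The 10 neutrophil markers summed to 466 and 560 CPM in HSCs, 1121 CPM in the WT and 284 CPM in the KO gated library, and the erythroid markers to 43.8, 43.2, 147 and 8.02 CPM in the same order. Without the WT CD41low/CD9low library 0 of these genes were called higher and 4 lower, and without the KO one 8 higher and 0 lower, so the direction of the list rests on which gated library is read.

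**Figure D4:**
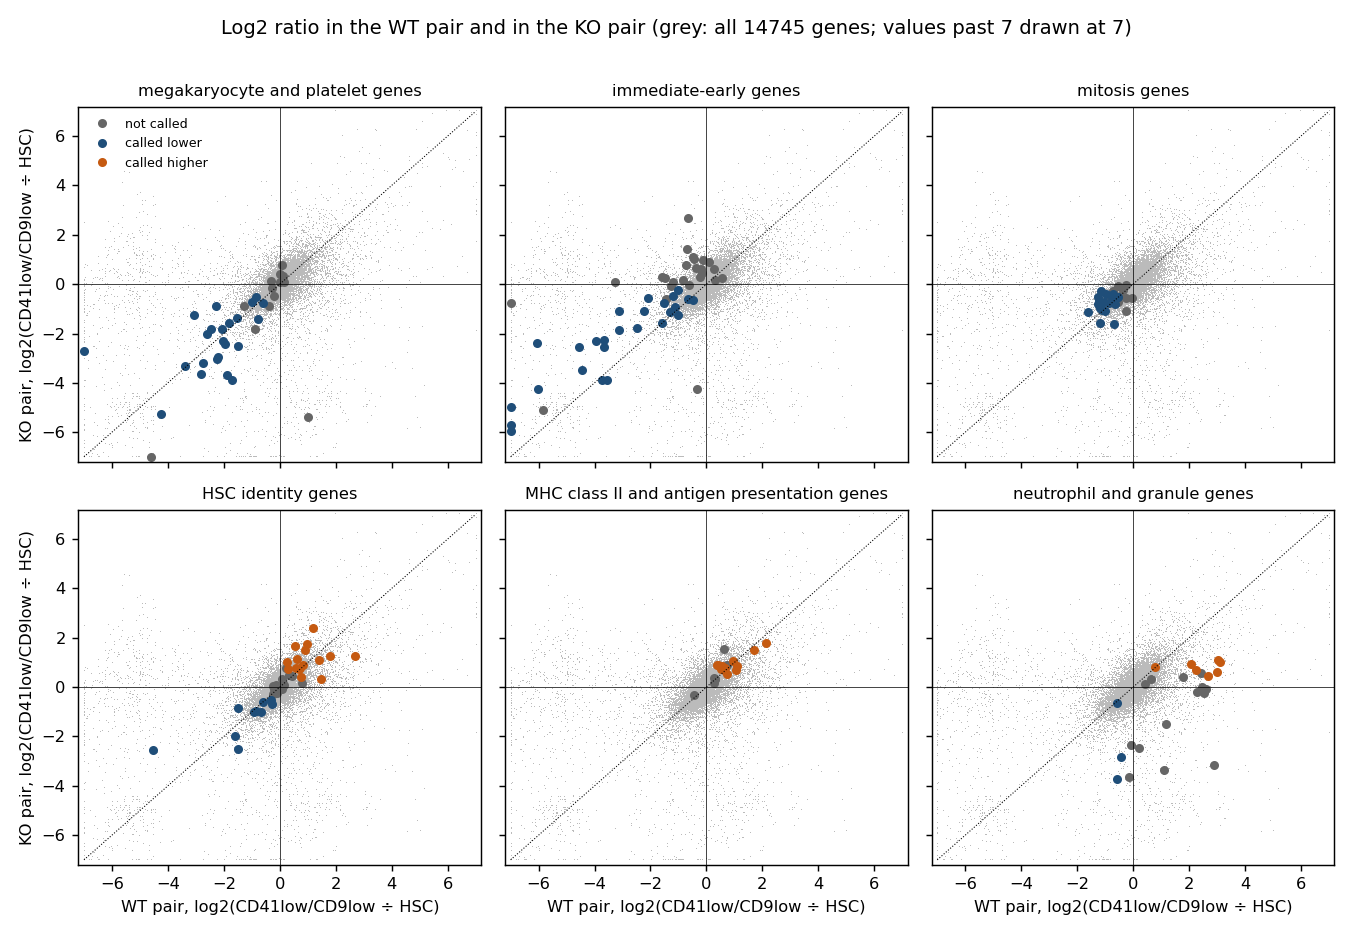
Log2 ratio of CD41low/CD9low HSCs to HSCs in the WT pair (horizontal) and the KO pair (vertical) for 6 gene lists, with genes called lower in blue, called higher in orange and not called in dark grey over all 14745 genes in light grey; the dotted line marks equal ratios. Megakaryocyte and platelet genes spread along the dotted line, immediate-early genes lie mostly above it, and neutrophil genes lie mostly below it, with medians of 1.93 and -0.03.

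The largest folds of all were taken from the 15 protein-coding genes highest and the 15 lowest in the fit among those called, at least 2-fold apart in both pairs and counted at least 100 times in each library of the higher population. All 30 were also called after the GC correction. Of the 15 higher genes 6, and of the 15 lower genes 7, overlap another gene on the same strand, against 8.6% of all tested genes. For these the population and the annotation release cannot be told apart. Overlap was read from GENCODE M21, while the releases used for the counts are not given. A changed gene model therefore cannot be told apart from the population for genes without such an overlap either. Zfp850, a zinc finger gene, and Lbhd1 had no counts in either HSC library. Zfp850, which overlaps no other gene on its strand, had 22.2 and 11.1 CPM in CD41low/CD9low HSCs, at least 366-fold and 149-fold higher. Cfap43, a cilia gene that overlaps Itprip, had 0.28 and 0.27 CPM in HSCs and 100.5 and 85.7 CPM in CD41low/CD9low HSCs. Gm28047, an id that spans Atf7 and Npff, had 12.3 and 25.6 CPM in HSCs and no counts in CD41low/CD9low HSCs, and Cpne1, which overlaps Rbm12, had 127 and 128 CPM against 0.62 and 2.12 CPM. Of the lower genes with no overlap on their strand, Arhgap30, a GTPase activating protein of blood cells, had 227 and 219 CPM in HSCs and 5.86 and 2.17 CPM in CD41low/CD9low HSCs (log2 -5.91, SE 0.29), and Pou2f1, an octamer-binding factor gene that overlaps Cd247 on the other strand, had 138 and 193 CPM against 3.63 and 3.0 CPM (log2 -5.65, SE 0.23).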

How the data were processed

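Counts per gene were deposited by the authors for each library as whole numbers, not normalized. By the methods and the submitters' processing notes, poly(A) RNA libraries (TruSeq Stranded mRNA) were aligned to mm10 with TopHat2 2.0.10 and counted with HTSeq. The annotation release and the strand setting of HTSeq are not given in the sources used here. HSC libraries list 38293 ids and CD41low/CD9low HSC libraries 41214. The labels name a MoFlo sorter and the methods a FACSAria II. Entries that name no gene were left out of library sizes. Reads that fell in no annotated gene equalled 80.0% and 105.3% of the gene counts of the WT and KO HSC libraries, and 62.0% and 60.1% in the gated libraries. Alignments recorded as not unique, which were left out as well, equalled 111.8% and 121.6% in HSC libraries, and 104.6% and 96.2% in the gated ones. A count of 3, taken as the detection limit, was 0.0607 and 0.0743 CPM in the former and 0.232 and 0.155 CPM in the latter, and covers counting error only.

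The fit over genotype and population used edgeR 4.0.16 (quasi-likelihood F-test, TMM, filterByExpr with a minimum count of 10, R 4.3.3) with Benjamini-Hochberg adjustment over all 14745 genes and a threshold of 0.05. Log2 values are CD41low/CD9low HSC minus HSC. The SE given with them is the absolute log2 difference divided by the square root of the F statistic. It is not an error estimated from replicate libraries. Ratios of single pairs had a prior count of 0.5. The GC correction subtracted from each library a running median over 501 genes ordered by the GC content of the longest GENCODE M21 transcript. Alternatives included DESeq2 1.42.0, other scalings and filters, thinned counts and each library left out. The scripts were tested on simulated counts. Leaving out genes that overlap another gene on their strand, and Itga2b and Cd9 from their lists, was chosen after seeing the data. Members, gene lists and tests were chosen with earlier results of these data known. Named genes were the sort genes, the 15 largest differences in each direction under the limits given in the text, and from each list the 4 most abundant and the 4 called genes with the largest differences. Genes that complete a complex, the Y-linked sum or a count of 1 were named besides, after their values were seen. Promoter sequences are from RefSeq (GRCm38.p6). Some genes are not reported here.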

Additional observations from a re-analysis of the deposited data

Results flagged for a closer look

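The WT and the KO pair were at least 2-fold apart in opposite directions in 386 of the 14745 tested genes. With 1 library per genotype and population, this difference between the pairs was not tested.

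Gene ids listed for only 1 of the populations entered no comparison. They held 0.218% of the counts of the WT HSC library, 0.192% of the KO HSC library, 1.45% of the WT CD41low/CD9low library and 1.1% of the KO CD41low/CD9low library. There is no control library for such ids, and the difference between the populations was not tested.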

How the results depend on the processing

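Counts of called genes moved most when a library was left out, a fit in which the lone library is assumed to vary like the others and genotype enters the spread. The range over the 4 libraries was 33 to 875 for genes called higher, 71 to 1550 for genes called lower, 3 to 21 for lower megakaryocyte and platelet genes, 1 to 26 for lower immediate-early genes, 0 to 20 for lower mitosis genes, 0 to 15 for higher HSC identity genes, 0 to 13 for higher antigen presentation genes and 0 to 54 for higher ribosomal protein genes. With the coefficient of variation set to 0.4 the counts were 329 higher and 544 lower in all, 17 lower immediate-early and 0 lower mitosis genes, 1 higher HSC identity gene, 1 higher antigen presentation gene and 0 higher ribosomal protein genes. Without genotype as covariate they were 356 and 734, then 17, 6, 2, 8 and 10 in the same order. The GC correction left 994 genes lower. The 870 reported as genes at least 2-fold lower in both pairs came to 2274 without a filter and 521 with at least 50 counts in 2 libraries, and for genes at least 2-fold higher in both pairs that limit gave 353 in place of 672. At 1.5-fold in both pairs 1434 were higher and 1763 lower, and at 4-fold 194 and 363. The sign of B2m (0.12), which was not called, turned with the GC correction. Over the left-out libraries the log2 difference ranged from -0.0495 to 0.25 for Kit, from -3.93 to 0.55 for Gfi1b, from -0.93 to 2.88 for Gfi1 (-0.36 without the WT HSC library) and from -0.016 to 0.39 for Mecom. These fits hold no genotype term, and Gfi1b and Gfi1, which differed between WT and KO in both populations, had the same sign in the WT and the KO pair before the GC correction. The cause of these shifts was not tested. Of 140 called genes, 111 kept their call and direction under every setting in which they were tested, other than the left-out libraries, the set coefficient of variation and the fit without genotype, and DESeq2 called 126. The fit pairs the libraries by genotype, its covariate, and no pairing beyond that was possible because the labels carry no further replicate numbers.

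The depth of the CD41low/CD9low libraries limits genes at low counts, since 3 counts there equal 0.155 to 0.232 CPM against 0.0607 to 0.0743 CPM in HSCs.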

Other observations

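Among the interferon-stimulated genes 6 of 41 (14.6%) were called higher and 2 (4.88%) lower, against 7.41% and 11.6% of all genes, and 5 and 1 after the GC correction. Irf1, a transcription factor that induces antigen presentation genes, had 157 and 107 CPM in WT and KO HSCs and 227 and 212 CPM in WT and KO CD41low/CD9low HSCs (log2 0.76, SE 0.16, adjusted p = 0.0066 in edgeR's quasi-likelihood test). Of the Ras-MAPK feedback genes 5 of 16 (31.2%) were called lower, against 11.6% of all genes, and 0 higher (edgeR, 1 at an unadjusted p under 0.05, and 0 by DESeq2), with 4 lower after the GC correction. Besides Dusp1 these held Spry1, an inhibitor of receptor signalling, at 43.5 and 17.9 CPM against 16.1 and 8.23 CPM, and the Ras GTPase activators Rasa1 (log2 -0.91, SE 0.14) and Nf1 (log2 -0.91, SE 0.18).

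Of the glycolysis genes 5 of 22 (22.7%) were called higher and 2 (9.09%) lower, against 7.41% and 11.6% of all genes, and 4 and 1 after the GC correction. Gapdh had 273 and 215 CPM in HSCs and 131 and 106 CPM in CD41low/CD9low HSCs (log2 -1.03, SE 0.14, adjusted p = 0.00071), while Tpi1 (log2 0.65, SE 0.14), Pgk1 (log2 0.60, SE 0.15) and Ldhb (log2 1.23, SE 0.18) were higher. Of the Bcl2 family and survival genes 4 of 17 (23.5%) were called lower, against 11.6% of all genes, and 0 higher (edgeR, 1 at an unadjusted p under 0.05, and 0 by DESeq2), and 4 after the GC correction. The survival gene Bcl2 had 186 and 196 CPM against 114 and 118 CPM, and the pro-apoptotic Bcl2l11 had 24.3 and 48.6 CPM against 12.6 and 25.4 CPM, where the WT HSC and the KO CD41low/CD9low library lay close together. Lymphotoxin beta (Ltb) had 47.9 and 20.4 CPM in HSCs and 169 and 144 CPM in CD41low/CD9low HSCs (log2 2.31, SE 0.22, adjusted p = 6.9e-05).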
